A study of Mus musculus with 8 samples.

Results

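The genes described here are 10 markers of trophoblast and of simple (single-layered) epithelium: the keratins Krt7, Krt8, Krt18 and Krt19 and the transcription factors Tead4, Gata2, Gata3, Tfap2c, Elf5 and Hand1. They were taken by gene symbol from a table of 48440 genes, and all 10 were found. Messenger RNA was sequenced in bulk from mouse embryonic stem cells (background 129/Ola), grown on gelatin in medium with serum and no feeder cells. The groups were β-catenin knock-out cells (CTNNB1-/-) with CHIR99021, knock-out cells with DMSO, parental cells (CTNNB1+/+) with CHIR99021 and parental cells with DMSO, with 2 libraries each. CHIR99021, an inhibitor of the kinase GSK3 that stabilises β-catenin, was given at 3 μM and its vehicle DMSO at 0.3 μl/ml, for 72 hours in both lines. The labels do not say how many clones make up the knock-out, so genotype and line cannot be told apart. Nothing in them states that the replicates came from separate cultures. The p-values therefore cover the spread of these libraries alone, which may be technical.

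Trophoblast is the first lineage to leave the early embryo: its outer layer, the trophectoderm, is the first epithelium and later forms the fetal part of the placenta. TEAD4, with the coactivators YAP and TAZ that the Hippo kinases restrain, switches on Cdx2 and Gata3 in outer cells, and Tfap2c, Gata2, Elf5 and Hand1 act in the same lineage or its descendants. Keratins form filaments only as pairs of a type II member (Krt7 and Krt8 here) and a type I member (Krt18 and Krt19), and these 4 mark simple epithelia, the trophectoderm included. Embryonic stem cells come from the inner cell mass and express most of these genes little.

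Of the 10 genes, Krt8, Tead4, Gata2 and Tfap2c differed between CHIR99021 and DMSO in both lines, upwards for Krt8 and Tead4 and downwards for Gata2 and Tfap2c. Krt19 rose with CHIR99021 in parental cells. The response of Krt8 and Krt19 differed between the lines with edgeR, and DESeq2 called neither difference. DESeq2 also did not call the parental rise of Krt19 or the knock-out changes of Krt8 and Gata2. Krt7, Krt18 and Elf5 gave no call in any comparison, and Gata3 and Hand1 had at most 8 counts in a library.

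Levels are given in CPM, a gene's estimated counts scaled to a common library total. Differences are log2 fold changes ± SE from edgeR's quasi-likelihood test with Benjamini-Hochberg adjustment over the 17739 genes tested, of which 8 are among the 10, and a gene was called at an adjusted p under 0.05. Library totals ran from 23650572 to 27680649 estimated counts, so that 10 counts correspond to 0.355 to 0.429 CPM. Ctnnb1, the targeted gene, was at 8.70 and 9.42 CPM in knock-out cells with CHIR99021 and 7.98 and 10.7 CPM in knock-out cells with DMSO, against 813.4 and 843.5 CPM in parental cells with CHIR99021 and 887.5 and 905.6 CPM in parental cells with DMSO. The 10 embryonic stem cell markers summed to 5539 to 6238 CPM over the 8 libraries, against 104.1 to 129.1 CPM for the 10 trophoblast and simple epithelium genes. These sums are not scaled by gene length. Pou5f1 and Dppa5a made up much of the first sum, and Tead4 and Tfap2c most of the second.

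The promoters of Krt8, Krt18 and Gata2 are shown because Krt8 and Gata2 moved in opposite directions and Krt18 encodes the filament partner of Krt8 from the neighbouring gene. Each runs from 250 bases before to 50 bases after a RefSeq start (GRCm38.p6), and capitals mark matches to any of 4 short motifs searched on both strands: CTTTGA for TCF/LEF, GGAATG for TEAD, AGATAA for GATA and GCCNNNGGC for AP-2, the family of TFAP2C.
Krt8, chr15:102004293-102004592, minus strand: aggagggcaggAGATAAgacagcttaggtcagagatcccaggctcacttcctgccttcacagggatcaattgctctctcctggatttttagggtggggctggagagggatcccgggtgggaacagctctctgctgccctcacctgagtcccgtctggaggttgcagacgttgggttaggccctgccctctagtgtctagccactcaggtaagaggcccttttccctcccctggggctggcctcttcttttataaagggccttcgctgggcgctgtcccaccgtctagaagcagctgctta
Krt18, chr15:102027966-102028265, plus strand: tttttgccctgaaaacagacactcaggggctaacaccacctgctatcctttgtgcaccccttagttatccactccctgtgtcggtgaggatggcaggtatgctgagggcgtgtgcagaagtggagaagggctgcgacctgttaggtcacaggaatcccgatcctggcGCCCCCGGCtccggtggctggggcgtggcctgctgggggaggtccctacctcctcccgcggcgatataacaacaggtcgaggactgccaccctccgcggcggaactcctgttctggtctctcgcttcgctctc
Gata2, upstream start, chr6:88193641-88193940, plus strand: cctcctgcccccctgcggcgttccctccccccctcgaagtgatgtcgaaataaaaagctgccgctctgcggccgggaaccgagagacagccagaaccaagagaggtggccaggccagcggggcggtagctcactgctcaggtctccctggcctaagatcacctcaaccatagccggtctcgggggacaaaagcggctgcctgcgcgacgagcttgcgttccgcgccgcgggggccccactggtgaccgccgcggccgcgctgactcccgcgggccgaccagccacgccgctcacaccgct
Gata2, downstream start, chr6:88198414-88198713, plus strand: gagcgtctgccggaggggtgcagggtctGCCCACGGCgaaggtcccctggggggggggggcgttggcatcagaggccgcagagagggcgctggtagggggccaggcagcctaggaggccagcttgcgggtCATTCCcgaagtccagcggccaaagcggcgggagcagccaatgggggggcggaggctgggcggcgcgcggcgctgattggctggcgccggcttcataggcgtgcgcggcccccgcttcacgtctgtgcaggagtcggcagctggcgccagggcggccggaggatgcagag
The Krt8 window held 1 GATA match at -239 from the start, and the Krt18 window held 1 AP-2 match at -83. The downstream Gata2 start had 1 AP-2 match at -222 and 1 TEAD match, as CATTCC, at -120, and the upstream start had none of the 4. Of 32851 RefSeq promoters of the same length, 16.0% held the TCF/LEF letters, 14.7% those of TEAD, 11.2% those of GATA and 16.6% those of AP-2. The table also held windows for Krt7, Gata3 and Elf5, where the TCF/LEF letters occurred only at 1 of the Elf5 starts. Of the other motifs, Krt7 held 2 AP-2 matches, Gata3 held 3 and the other Elf5 start held 1 TEAD match. A match is a match of letters only and no binding was measured.

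Of the 8 genes tested, 3 rose with CHIR99021 in parental cells and 2 fell, where 9.1% of all genes tested rose, 10.3% fell and 19.4% were called in either direction. In knock-out cells 2 rose and 2 fell, where 2.88% of all genes rose, 4.18% fell and 7.06% were called. Between the lines, 1 was higher and 2 lower in knock-out cells with CHIR99021 (11.2% and 12.5% of all genes, 23.7% in either direction). With DMSO 0 were higher and 1 lower (3.13% and 3.62% of all genes, 6.75% in either direction). The CHIR99021 response differed between the lines for 2 of the 8, both with a lower value in knock-out cells (2.91% of all genes in that direction, 3.22% in the other and 6.13% in either). The median of the 8 was 0.35 for CHIR99021 in parental cells and -0.11 in knock-out cells, against 0.00 over all genes in both. DESeq2 called 4 and 2 of the 8 in these comparisons, 2 and 0 between the lines with CHIR99021 and with DMSO, and 0 for the interaction.

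**Figure D1:**
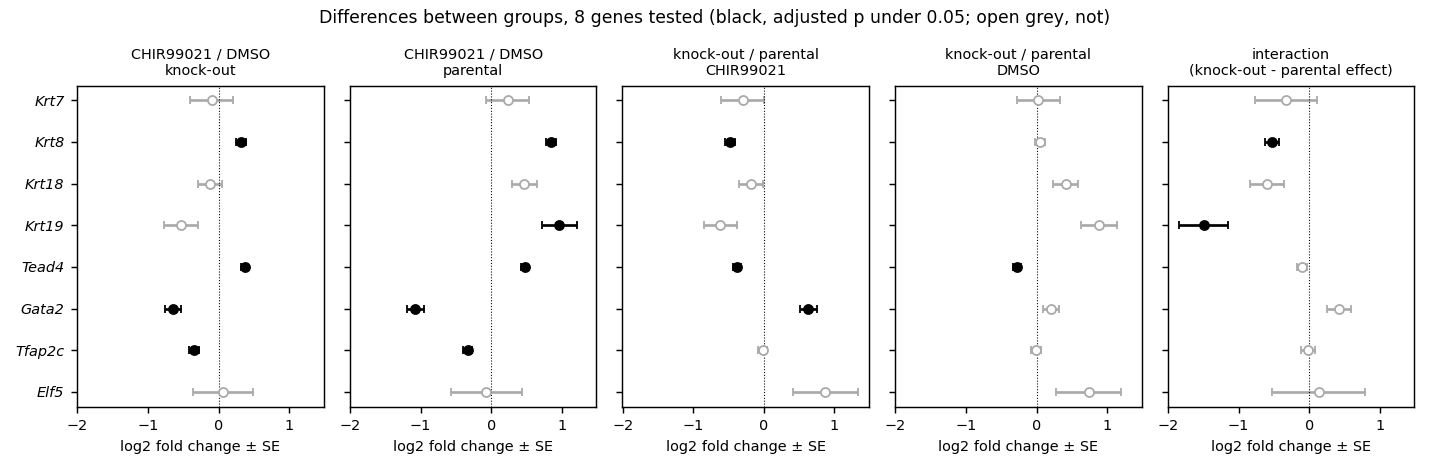
Log2 fold change ± SE (horizontal axes) of the 8 genes tested in each of the 5 comparisons, the last of which is the difference of the CHIR99021 responses. Filled black points passed an adjusted p of 0.05 and open grey points did not. Krt8 and Tead4 lie above 0 and Gata2 and Tfap2c below 0 with CHIR99021 in both lines, while the interaction passes for Krt8 at -0.53 and Krt19 at -1.50.

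Krt8 (ENSMUSG00000049382, GRCm38 chromosome 15, 101996698 to 102004482) encodes keratin 8, the most widespread type II keratin of simple epithelia. It stood at 29.4 and 27.6 CPM in parental cells with CHIR99021, against 16.4 and 15.3 CPM in parental cells with DMSO. The knock-out levels were 20.1 and 20.8 CPM with CHIR99021, against 16.3 and 16.5 CPM with DMSO. Both CHIR99021 groups lay above both DMSO groups without overlap, and the parental CHIR99021 libraries were the highest of the 8. In parental cells Krt8 rose with CHIR99021 by 0.85 ± 0.07 (adjusted p = 6.95e-06), which is 1.80-fold. In knock-out cells it rose by 0.32 ± 0.07 (adjusted p = 0.0206), a 1.25-fold difference, and the interaction, the response of knock-out minus that of parental cells, was -0.53 ± 0.10 (adjusted p = 0.00747). With DMSO alone the lines did not differ beyond their spread, with 0.05 ± 0.07 for knock-out over parental cells and a 95% interval of -0.11 to 0.20. With CHIR99021 the level was lower in knock-out than in parental cells, at -0.48 ± 0.07 (adjusted p = 0.000343). The smaller rise in knock-out cells was not called by DESeq2 (adjusted p = 0.161), nor without knock-out CHIR99021 replicate 1 (0.0808) or 2 (0.124) or knock-out DMSO replicate 1 (0.141), and DESeq2 gave 0.0707 for the interaction. These are bulk values, so more or fewer cells of a type and more or less RNA per cell cannot be told apart.

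**Figure D2:**
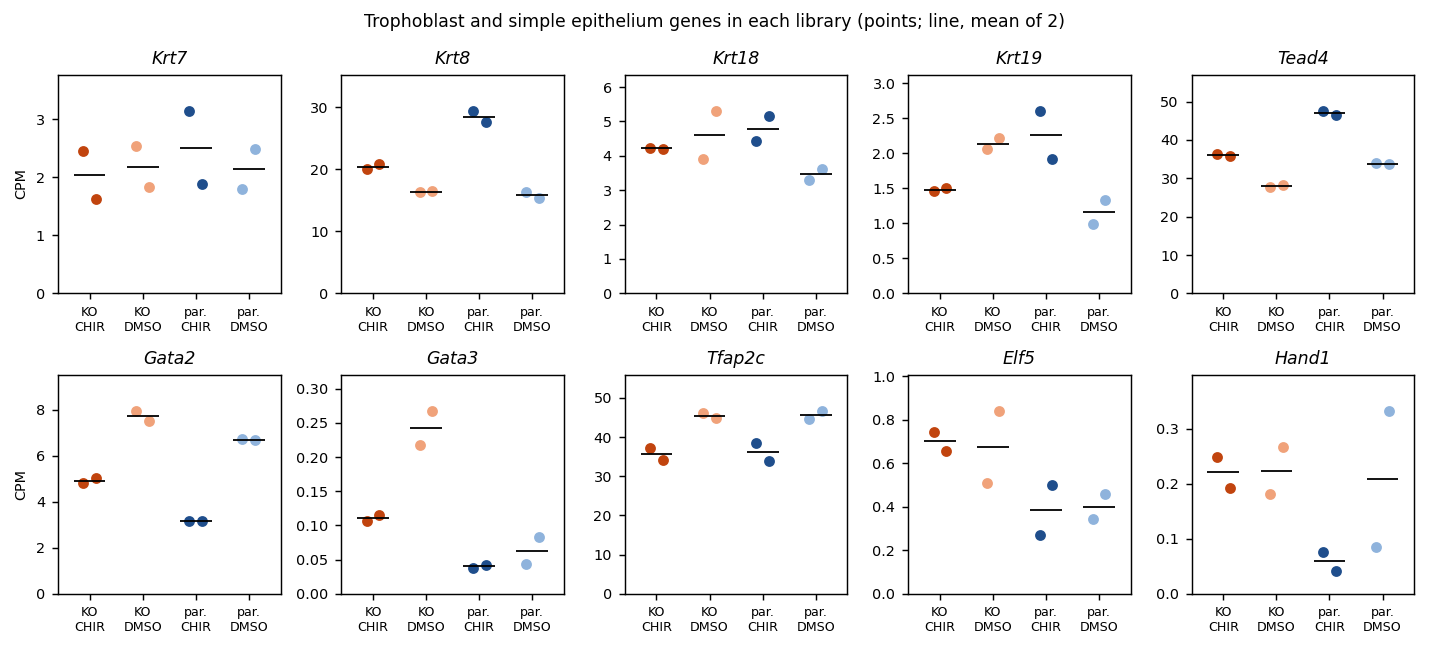
The level of each of the 10 genes in CPM (vertical axes, each starting at 0) in the 4 groups, from knock-out with CHIR99021 on the left to parental with DMSO on the right. Points are libraries and lines are the means of 2. Krt8 and Tead4 are highest in the parental CHIR99021 libraries, at 27.6 to 29.4 and 46.4 to 47.5 CPM, and Gata2 is lowest there, at 3.18 CPM in both.

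Krt18 (ENSMUSG00000023043, chromosome 15, 102028180 to 102032027) encodes keratin 18, the type I partner of keratin 8. Its gene is the next protein-coding gene to Krt8, 23698 bases away on the opposite strand. Krt18 was at 4.44 and 5.14 CPM in parental cells with CHIR99021, against 3.31 and 3.61 CPM in parental cells with DMSO. The knock-out cells had 4.23 and 4.21 CPM with CHIR99021, against 3.92 and 5.30 CPM with DMSO. The parental groups did not overlap, but their difference of 0.47 ± 0.17 was not called (adjusted p = 0.0867, 95% interval 0.08 to 0.85). The difference in knock-out cells was -0.13 ± 0.17 (adjusted p = 0.72), and the interaction was -0.59 ± 0.24 (adjusted p = 0.193). Between the lines Krt18 differed by 0.41 ± 0.17 with DMSO (adjusted p = 0.202) and by -0.18 ± 0.17 with CHIR99021 (adjusted p = 0.481), neither of them called. The processed pseudogene Gm5200 matches the Krt18 transcript at 90.5% over 1267 aligned bases and has no value here, so how reads were shared with it was not tested.

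Krt19 (ENSMUSG00000020911, chromosome 11, 100140810 to 100148665) encodes the smallest type I keratin, which can pair with keratin 8 in place of keratin 18. It was at 2.61 and 1.92 CPM in parental cells with CHIR99021 (68 and 46 counts), against 0.987 and 1.33 CPM in parental cells with DMSO (23 and 32 counts). In knock-out cells it was at 1.46 and 1.51 CPM with CHIR99021 (41 and 39 counts), against 2.07 and 2.21 CPM with DMSO (57 and 58 counts). The order of the treatments was therefore opposite in the lines, without overlap in either. In parental cells Krt19 rose with CHIR99021 by 0.97 ± 0.25 (adjusted p = 0.0211), and in knock-out cells the difference was -0.53 ± 0.24 and was not called (adjusted p = 0.216). The interaction of -1.50 ± 0.35 was called (adjusted p = 0.0287). Knock-out against parental cells gave 0.88 ± 0.25 with DMSO (adjusted p = 0.0657) and -0.61 ± 0.24 with CHIR99021 (adjusted p = 0.0906). Both Krt19 calls depended on the tool and on single libraries. DESeq2 gave adjusted p = 0.144 for the parental rise and 0.188 for the interaction, and the parental rise was 0.77 (adjusted p = 0.141) without parental DMSO replicate 1 and 0.73 (adjusted p = 0.154) without parental CHIR99021 replicate 1. Leaving out either of those, or any of the 4 knock-out libraries (knock-out CHIR99021 replicates 1 and 2, knock-out DMSO replicates 1 and 2), gave adjusted p = 0.065 to 0.115 for the interaction.

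Krt7 (ENSMUSG00000023039, chromosome 15, 101411043 to 101430313) encodes keratin 7, a type II keratin of ducts and of trophoblast. It was at 2.45 and 1.62 CPM in knock-out cells with CHIR99021, 2.54 and 1.83 CPM in knock-out cells with DMSO, 3.14 and 1.88 CPM in parental cells with CHIR99021 and 1.80 and 2.49 CPM in parental cells with DMSO. All 4 groups overlapped, and no comparison was called. The CHIR99021 difference was -0.10 ± 0.31 in knock-out cells and 0.23 ± 0.31 in parental cells, where the 95% interval of -0.45 to 0.91 leaves room for a change as large as that of Krt8.

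Levels can be set side by side between keratins only per length. Per kilobase of exon, Krt8 averaged 10.4 CPM in knock-out cells with CHIR99021, 8.37 in knock-out cells with DMSO, 14.6 in parental cells with CHIR99021 and 8.10 in parental cells with DMSO. Krt18 was at 2.94, 3.21, 3.34 and 2.41 CPM per kilobase in the same groups, and Krt19 and Krt7 lay lower still. The level of Krt8 per kilobase was 3.49 and 3.62 times that of Krt18 in knock-out cells with CHIR99021, against 3.05 and 2.29 times with DMSO. In parental cells the ratio was 4.85 and 3.94 with CHIR99021, against 3.63 and 3.12 with DMSO. The messages of both type II keratins together came to 14.9 ± 0.771 CPM per kilobase in parental cells with CHIR99021, against 8.40 ± 0.294 with DMSO (SD, n = 2 each). In knock-out cells they came to 10.7 ± 0.16 with CHIR99021, against 8.68 ± 0.0161 with DMSO (SD, n = 2 each). Those of Krt18 and Krt19 came to 4.56 ± 0.0843 in parental cells with CHIR99021, against 3.03 ± 0.279 with DMSO (SD, n = 2 each). In knock-out cells the sum of Krt18 and Krt19 was lower with CHIR99021, at 3.73 ± 0.0105, against 4.36 ± 0.738 with DMSO (SD, n = 2 each), a difference smaller than the SD of the DMSO libraries. Krt7 has 7049 bases of exon in all but a mean transcript of 1868 bases, and its level per kilobase of mean transcript was 1.09 to 1.34 CPM over the groups.

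Of 11 other keratins 3 were tested, and Krt17 and Krt42, type I keratins of stratified epithelia and skin appendages, were the most abundant of the 7 keratins tested per length in DMSO. Krt17 was at 15.3 ± 0.0435 CPM in parental cells with CHIR99021, against 33.0 ± 0.549 CPM with DMSO (SD, n = 2 each), and fell by 1.11 on the log2 scale (± 0.06, adjusted p = 4.64e-07). Krt42 was at 18.7 ± 0.618 CPM with CHIR99021, against 29.0 ± 0.585 CPM with DMSO (SD, n = 2 each), and fell by 0.64 (± 0.07, adjusted p = 0.000123). Both thus moved against Krt8 and Krt19 in parental cells. In knock-out cells neither was called, with -0.21 ± 0.06 for Krt17 (adjusted p = 0.0622) and -0.23 ± 0.07 for Krt42 (adjusted p = 0.0962), and the interaction was 0.90 ± 0.09 for Krt17 (adjusted p = 0.000118) and 0.41 ± 0.11 for Krt42 (adjusted p = 0.045). Krt10, a type I keratin of upper epidermis, gave no call. All 5 type I keratins together came to 26.9 ± 0.456 CPM per kilobase in parental cells with CHIR99021, against 42.3 ± 1.15 with DMSO, and to 30.6 ± 0.827 in knock-out cells with CHIR99021, against 35.3 ± 1.03 with DMSO (SD, n = 2 each). The 8 keratins that did not pass the filter, Krt5 and Krt14 among them, had at most 45 counts over all 8 libraries.

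**Figure D3:**
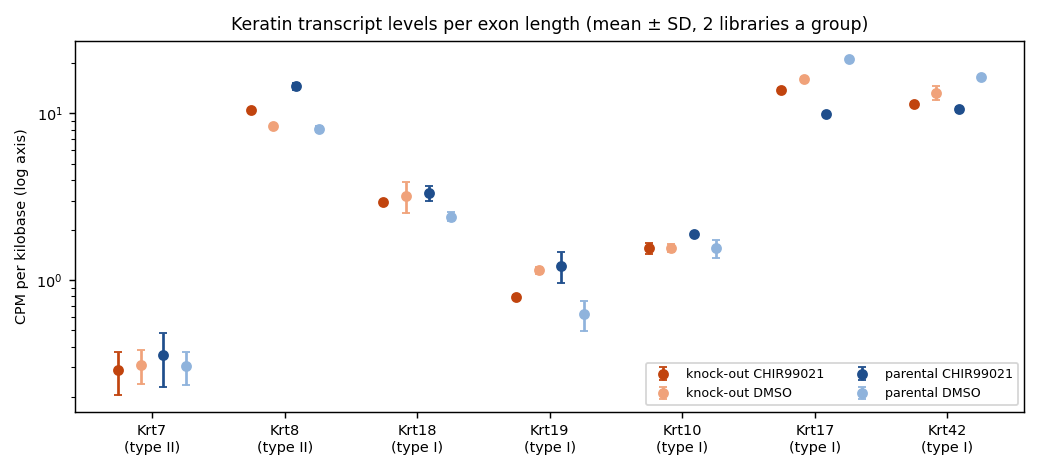
Level of 7 keratins in CPM per kilobase of exon (log axis), as mean ± SD of 2 libraries in each of the 4 groups. Krt8 is the highest of the 4 simple epithelial keratins in every group, at 8.10 to 14.6 CPM per kilobase, and Krt17 and Krt42 stand highest in parental cells with DMSO, at 21.3 and 16.4.

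Tead4 (ENSMUSG00000030353, chromosome 6, 128224288 to 128300823) encodes the DNA-binding factor that starts the trophectoderm programme. It was at 47.5 and 46.4 CPM in parental cells with CHIR99021, against 34.0 and 33.7 CPM in parental cells with DMSO. Knock-out cells had 36.3 and 35.8 CPM with CHIR99021, against 27.7 and 28.2 CPM with DMSO. No groups overlapped. Tead4 rose with CHIR99021 in parental cells by 0.47 ± 0.05 (adjusted p = 7.02e-05) and in knock-out cells by 0.37 ± 0.05 (adjusted p = 0.00265). The responses differed by -0.10 ± 0.07 (interaction, adjusted p = 0.47), with a 95% interval of -0.27 to 0.06. The level was lower in knock-out than in parental cells, at -0.38 ± 0.05 with CHIR99021 (adjusted p = 0.000295) and -0.28 ± 0.05 with DMSO (adjusted p = 0.0118). The difference in DMSO was not called by DESeq2 (adjusted p = 0.0831), nor without parental DMSO replicate 1 (0.0976) or 2 (0.0681) or knock-out DMSO replicate 1 (0.0589).

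Of 20 tested Hippo pathway genes, TEAD partners and targets, 5 rose and 7 fell with CHIR99021 in parental cells, with a median of -0.04 against 0.00 over all genes, of which 19.4% were called. In knock-out cells 0 rose and 2 fell, with a median of -0.01, where 7.06% of all genes were called. Wwtr1, which encodes the coactivator TAZ, was at 45.5 ± 2.31 CPM in parental cells with CHIR99021, against 31.9 ± 0.0667 CPM with DMSO (SD, n = 2 each), and rose by 0.51 ± 0.06 (adjusted p = 0.000142). In knock-out cells its difference of 0.14 ± 0.06 was not called, and the interaction was -0.37 ± 0.09 (adjusted p = 0.033). Ajuba, which encodes an inhibitor of the LATS kinases, fell in parental cells by 0.61 ± 0.06 on the log2 scale (adjusted p = 1.91e-05) and in knock-out cells by 0.43 ± 0.06 (adjusted p = 0.00149). Nf2, an upstream activator of the LATS kinases, fell in parental cells by 0.33 ± 0.04 (adjusted p = 0.00012). Of the TEAD target genes Ctgf (CCN2) fell in both lines, by 0.49 ± 0.09 in parental cells (adjusted p = 0.00239) and 0.37 ± 0.08 in knock-out cells (adjusted p = 0.0206), while Cyr61 (CCN1) rose in parental cells by 0.46 ± 0.14 (adjusted p = 0.0449). Per kilobase of exon Tead4 was at 13.1 CPM in parental cells with CHIR99021, against 9.41 with DMSO, while Tead1 was at 14.6 against 14.1 and Tead2 at 20.0 against 22.9. Levels between these genes depended on the length used. Per kilobase of mean transcript Tead4 was at 30.9 against 22.3 CPM, Tead1 at 79.6 against 77.0 and Tead2 at 110.0 against 126.3. Tead3 was the least abundant of the family, at 0.318 to 0.463 CPM per kilobase over the groups.

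Between the lines the same 20 genes gave 8 higher and 5 lower in knock-out cells with CHIR99021, and 3 higher and 2 lower with DMSO. Over all genes 11.2% were higher and 12.5% lower with CHIR99021, and 3.13% higher and 3.62% lower with DMSO. Wwtr1 was lower in knock-out cells, at -0.84 ± 0.06 with CHIR99021 (adjusted p = 3.5e-06) and -0.47 ± 0.06 with DMSO (adjusted p = 0.00194). Ctgf was higher in knock-out cells by 0.70 ± 0.09 with CHIR99021 (adjusted p = 0.000162) and by 0.57 ± 0.08 with DMSO (adjusted p = 0.00236). Tead1 was higher in knock-out cells by 0.26 ± 0.04 with CHIR99021 (adjusted p = 0.000777) and by 0.28 ± 0.04 with DMSO (adjusted p = 0.00266), opposite in direction to Tead4.

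Gata2 (ENSMUSG00000015053, chromosome 6, 88193891 to 88207032) encodes a zinc finger factor that drives placental genes in trophoblast giant cells and also acts in blood stem cells. It was at 3.18 CPM in both parental libraries with CHIR99021, against 6.74 and 6.68 CPM in parental cells with DMSO. The knock-out libraries had 4.83 and 5.02 CPM with CHIR99021, against 7.94 and 7.52 CPM with DMSO. The 4 groups did not overlap. Gata2 fell with CHIR99021 in parental cells by 1.08 on the log2 scale (± 0.12, adjusted p = 0.000104), to 0.474 of the DMSO level, and in knock-out cells by 0.65 (± 0.11, adjusted p = 0.00804), to 0.637 of it. The interaction of 0.43 ± 0.17 was not called (adjusted p = 0.179). Knock-out cells were higher than parental cells with CHIR99021 by 0.63 ± 0.13 (adjusted p = 0.00417), and with DMSO the difference of 0.20 ± 0.11 was not called (adjusted p = 0.334). DESeq2 called neither the fall in knock-out cells (adjusted p = 0.0813) nor the difference between the lines with CHIR99021 (0.0583). The fall in knock-out cells was also not called without knock-out CHIR99021 replicate 1 (0.07) or 2 (0.0567) or knock-out DMSO replicate 1 (0.0713).

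Gata2 also acts in blood, and of 7 haemogenic markers 1 fell and 0 rose in parental cells with CHIR99021, where 10.3% of all genes fell. Their median was -0.30 in parental cells and -0.28 in knock-out cells, against 0.00 over all genes. The gene called in parental cells was Tal1, a factor of early blood, which fell by 1.12 ± 0.26 on the log2 scale (adjusted p = 0.0117). In knock-out cells 1 of the 7 rose, Pecam1 by 0.24 ± 0.04 (adjusted p = 0.00971), where 2.88% of all genes rose. Most of the summed level of these markers was Pecam1, which encodes an adhesion molecule that embryonic stem cells also express. The sum was 93.9 to 95.6 CPM in knock-out cells with CHIR99021 and 83.3 to 84.5 CPM in knock-out cells with DMSO, against 72.6 to 75.1 CPM in parental cells with CHIR99021 and 72.1 to 73.2 CPM in parental cells with DMSO.

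Tfap2c (ENSMUSG00000028640, chromosome 2, 172549593 to 172558622) encodes AP-2γ, which is needed for trophoblast and for primordial germ cells. It was at 38.4 and 33.9 CPM in parental cells with CHIR99021, against 44.7 and 46.6 CPM with DMSO. In knock-out cells it was at 37.1 and 34.3 CPM with CHIR99021, against 46.1 and 44.8 CPM with DMSO. The CHIR99021 libraries of both lines lay below all DMSO libraries, and the lines overlapped within each treatment. Tfap2c fell with CHIR99021 in parental cells by 0.34 on the log2 scale (± 0.07, adjusted p = 0.00545) and in knock-out cells by 0.35 (± 0.07, adjusted p = 0.0132). The interaction was -0.01 ± 0.10 (adjusted p = 0.957), with a 95% interval of -0.23 to 0.20. The fall in knock-out cells was not called without knock-out DMSO replicate 1 (adjusted p = 0.0961) or knock-out CHIR99021 replicate 2 (0.124). Knock-out against parental cells gave -0.02 ± 0.07 with CHIR99021 and -0.01 ± 0.07 with DMSO.

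Among 8 germ cell markers 3 fell and 0 rose in parental cells with CHIR99021, where 10.3% of all genes fell. The same counts were found in knock-out cells, where 4.18% of all genes fell. Prdm14, which acts with Tfap2c in germ cell specification, fell by 0.87 ± 0.07 in parental cells (adjusted p = 5.93e-06) and by 0.45 ± 0.07 in knock-out cells (adjusted p = 0.00347). The germ cell markers summed to 107.7 to 108.6 CPM in knock-out cells with CHIR99021 and 138.4 to 139.0 CPM with DMSO, against 140.8 to 149.4 CPM in parental cells with CHIR99021 and 171.7 to 172.3 CPM with DMSO. Kit was the largest part of this sum in every group. It averaged 35.5 CPM in knock-out cells with CHIR99021 and 54.4 CPM with DMSO. In parental cells Kit averaged 75.7 CPM with CHIR99021 and 78.4 CPM with DMSO, and Prdm14 18.9 against 34.5 CPM. The group means of Ddx4 and Dazl were not lower with CHIR99021 in either line. The part of the germ cell markers in the Tfap2c result was not tested.

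Many genes within 5 Mb of Tfap2c differed between the lines although Tfap2c did not. Of 96 tested genes within 5 Mb of it, 28 were lower and 0 higher in knock-out than in parental cells with DMSO, with a median of -0.20, against 3.62% lower and 3.13% higher over all genes. With CHIR99021, 28 were lower and 3 higher, with a median of -0.21, against 12.5% lower and 11.2% higher over all genes. With DMSO the nearest tested genes on either side, Gm14303 (adjusted p = 0.841) and Bmp7 (0.556), were not called. Rtf2 (0.0261) and Rae1 (0.00333), a little farther off, were lower. Many of the lower genes lay in a run of Gm and Zfp entries from 2.46 to 4.99 Mb. How reads were shared among those entries was not tested. Elf5, on the same chromosome, had 13 of 46 neighbours lower and 0 higher in knock-out cells with DMSO, with a median of -0.22, and 12 lower and 4 higher with CHIR99021, with a median of -0.13. Around the other genes of the 10 the medians lay between -0.07 and 0.05.

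**Figure D4:**
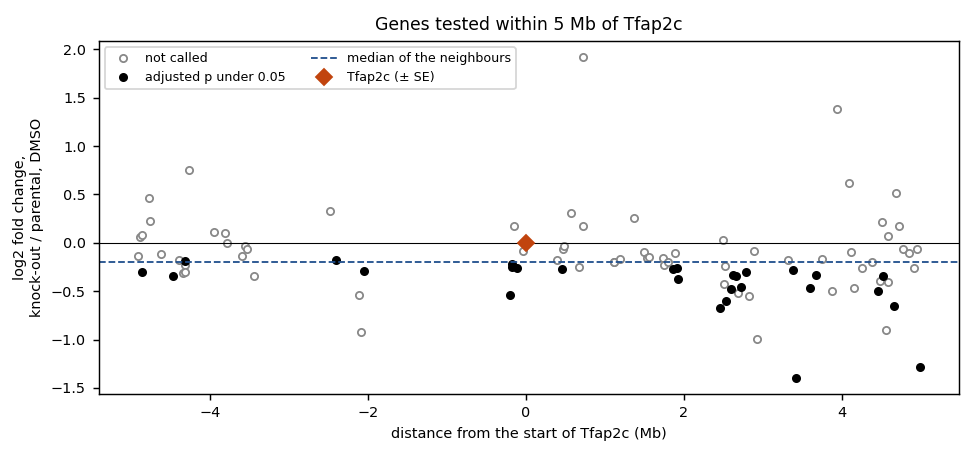
Knock-out over parental log2 fold change in DMSO (vertical axis) of the genes tested within 5 Mb of Tfap2c, by distance from its start. Filled points passed an adjusted p of 0.05, all of them below 0, and the dashed line is the median of the neighbours. Tfap2c itself, the diamond, stands at -0.01 ± 0.07 (SE).

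The 3 remaining factors were near the limit of detection. Elf5 (ENSMUSG00000027186, chromosome 2, 103411688 to 103450989), which maintains trophoblast stem cells, had 21 and 17 counts in knock-out cells with CHIR99021, 14 and 22 in knock-out cells with DMSO, 7 and 12 in parental cells with CHIR99021 and 8 and 11 in parental cells with DMSO. The knock-out counts were all above the parental ones. The difference between the lines was 0.87 ± 0.46 with CHIR99021 (adjusted p = 0.204) and 0.74 ± 0.46 with DMSO (adjusted p = 0.404) and was not called. With CHIR99021 against DMSO Elf5 gave 0.06 ± 0.42 in knock-out cells and -0.07 ± 0.51 in parental cells. The summed counts were 38 against 19 with CHIR99021, a ratio of 1.85 with a 95% interval of 1.04 to 3.40, and 36 against 19 with DMSO, a ratio of 1.67 (0.932 to 3.08), intervals that cover counting error only.

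Gata3 (ENSMUSG00000015619, chromosome 2, 9857078 to 9890034), a direct TEAD4 target in the trophectoderm, had 3 and 3 counts in knock-out cells with CHIR99021, 6 and 7 in knock-out cells with DMSO, 1 and 1 in parental cells with CHIR99021 and 1 and 2 in parental cells with DMSO. Each knock-out library had more than each parental library. The ratio of knock-out to parental cells was 2.78 (0.496 to 28.1) with CHIR99021 and 3.82 (1.05 to 20.9) with DMSO, and a fit without the filter on low counts gave 1.37 ± 1.37 (adjusted p = 0.686) and 1.85 ± 1.17 (adjusted p = 0.54). Hand1 (ENSMUSG00000037335, chromosome 11, 57828705 to 57832818), which promotes giant cell formation and is also active in mesoderm and heart, had 7 and 5 counts in knock-out cells with CHIR99021, 5 and 7 in knock-out cells with DMSO, 2 and 1 in parental cells with CHIR99021 and 2 and 8 in parental cells with DMSO. Both knock-out groups lay above parental cells with CHIR99021 and overlapped parental cells with DMSO. With CHIR99021, 12 summed counts in knock-out cells stood against 3 in parental cells, a ratio of 3.70 (0.999 to 20.4). Without the filter the fit gave 1.80 ± 1.04 for it (adjusted p = 0.311). In parental cells 3 summed counts with CHIR99021 stood against 10 with DMSO, a ratio of 0.284 (0.0503 to 1.10). At this depth no difference in Gata3 or Hand1 was detectable by the fit.

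Of 24 other trophoblast genes 16 were tested. With CHIR99021 5 rose and 4 fell in parental cells, with a median of -0.04, where 9.1% of all genes rose and 10.3% fell. In knock-out cells 0 rose and 4 fell, with a median of -0.28, where 2.88% of all genes rose and 4.18% fell. Eomes, a factor of trophoblast stem cells and of the primitive streak, was at 30.4 ± 0.0697 CPM in parental cells with CHIR99021, against 1.48 ± 0.0838 CPM with DMSO (SD, n = 2 each), and rose by 4.36 ± 0.11 (adjusted p = 2.03e-09). Cdx2, the caudal factor of trophectoderm and posterior embryo, rose by 3.83 ± 0.71 (adjusted p = 0.00306), with 78 counts in both CHIR99021 libraries together and 5 in both DMSO libraries. T, the streak gene brachyury, rose alongside them by 5.05 ± 0.31 (adjusted p = 9.92e-07) and was at 11.3 ± 1.34 CPM with CHIR99021, against 0.34 ± 0.187 CPM with DMSO (SD, n = 2 each). The part of streak-like cells in the Eomes and Cdx2 values was not tested. In knock-out cells the differences were -0.38 ± 0.17 for Eomes (adjusted p = 0.367) and -0.52 ± 0.81 for Cdx2 (adjusted p = 0.763).

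Cdh3, the placental cadherin P-cadherin, was at 8.01 ± 0.326 CPM in parental cells with CHIR99021, against 21.4 ± 0.337 CPM with DMSO (SD, n = 2 each), and fell by 1.42 ± 0.08 on the log2 scale (adjusted p = 5.19e-07). In knock-out cells it was at 10.2 ± 0.5 CPM with CHIR99021, against 15.7 ± 0.672 CPM with DMSO (SD, n = 2 each), and fell by 0.62 ± 0.08 (adjusted p = 0.00149). Peg10, an imprinted gene needed for the placenta, rose in parental cells by 0.34 ± 0.05 (adjusted p = 0.00066) and fell in knock-out cells by 0.22 ± 0.05 (adjusted p = 0.0222). Between the lines, 4 of the 16 were higher and 6 lower in knock-out cells with CHIR99021, and 3 higher and 1 lower with DMSO. Over all genes 11.2% were higher and 12.5% lower with CHIR99021, and 3.13% higher and 3.62% lower with DMSO. Fgfr2, the receptor through which FGF4 maintains trophoblast stem cells, was higher in knock-out cells by 2.19 ± 0.31 with CHIR99021 (adjusted p = 0.00049) and by 1.37 ± 0.26 with DMSO (adjusted p = 0.011). Phlda2, an imprinted gene that restrains placental growth, was higher by 0.59 ± 0.06 with CHIR99021 (adjusted p = 4.69e-05) and by 0.34 ± 0.06 with DMSO (adjusted p = 0.00763). The placental genes Prl3d1, Prl2c2, Tpbpa and Ctsq were listed at 0 in all 8 libraries, and the 4 others that did not pass the filter, Gcm1, Plac1, Rhox6 and Rhox9, had at most 59 counts over the 8.

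Among 24 epithelial junction and regulator genes, 0 rose and 5 fell with CHIR99021 in parental cells, with a median of -0.06, where 19.4% of all genes were called. In knock-out cells 2 rose and 5 fell, with a median of -0.05, where 7.06% of all genes were called. Grhl2, a factor that keeps the epithelial state, fell by 1.47 ± 0.16 on the log2 scale in parental cells (adjusted p = 5.68e-05) and by 1.13 ± 0.14 in knock-out cells (adjusted p = 0.0012). Epcam, an epithelial adhesion molecule, fell by 0.52 ± 0.08 in parental cells (adjusted p = 0.000709) and by 0.46 ± 0.07 in knock-out cells (adjusted p = 0.00498). The desmosome gene Pkp2 fell by 0.43 ± 0.09 in parental cells (adjusted p = 0.00538) and 0.54 ± 0.08 in knock-out cells (adjusted p = 0.00312). Cdh1, which encodes E-cadherin, stayed between 220 and 242 CPM in group means and was not called for CHIR99021 in either line. Its response was 0.11 ± 0.04 in parental cells and -0.14 ± 0.04 in knock-out cells, and the interaction of -0.25 ± 0.06 was called (adjusted p = 0.0356). Cldn4, a tight junction claudin, rose in knock-out cells by 0.49 ± 0.07 (adjusted p = 0.0021) and was at -0.12 ± 0.07 in parental cells (adjusted p = 0.267). The other gene that rose in knock-out cells was Perp, a desmosome gene, by 0.26 ± 0.07 (adjusted p = 0.0418).

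**Figure D5:**
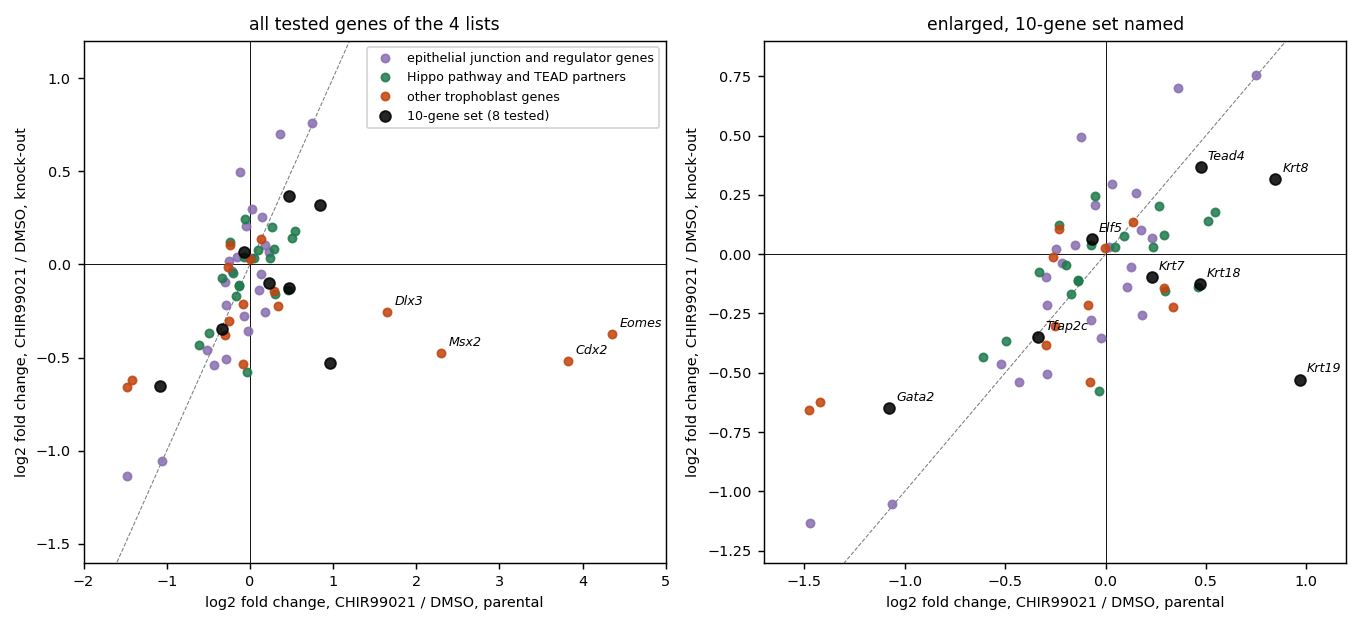
CHIR99021 over DMSO log2 fold change in knock-out cells (vertical axis) against parental cells (horizontal axis) for the tested genes of 4 lists, all of them on the left and enlarged on the right. Axis scales differ between the vertical and horizontal axes, and the dashed line marks equal values. Tead4 and Tfap2c lie near the line, Krt8 below it at 0.32 against 0.85, Krt19 at -0.53 against 0.97, and Eomes and Cdx2 far to the right.

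Markers of other cell types moved beside these genes. Of 14 endoderm markers 8 were tested, and the other 6 had at most 38 counts over 8 libraries. Of the 8, 4 were higher and 0 lower in knock-out cells with either treatment. Their medians were 0.87 with CHIR99021 and 1.02 with DMSO, where 11.2% and 3.13% of all genes were higher. With DMSO, Hnf4a was at -0.06 ± 0.18 and Sox7 at -0.21 ± 0.11, neither of them called. With CHIR99021 1 rose and 2 fell in parental cells and 0 were called in knock-out cells, where 19.4% and 7.06% of all genes were called. Gata4, an endoderm factor, was higher in knock-out cells by 1.24 ± 0.14 with CHIR99021 (adjusted p = 9.79e-05) and by 1.08 ± 0.14 with DMSO (adjusted p = 0.00171). The endoderm sum was 36.5 to 40.7 CPM in knock-out cells with CHIR99021 and 38.5 to 41.0 CPM with DMSO, against 18.6 to 19.0 CPM in parental cells with CHIR99021 and 28.1 to 28.2 CPM with DMSO. Endoderm also expresses Krt8, Krt18 and Krt19. Of the sum in parental cells, Sox7 was at 4.74 ± 0.859 CPM with CHIR99021, against 14.1 ± 0.339 CPM with DMSO, while Gata4 was at 4.73 ± 0.519 against 5.01 ± 1.13 CPM and Pdgfra at 1.97 ± 0.246 against 1.10 ± 0.206 CPM (SD, n = 2 each). The mesoderm and amnion markers summed to 77.0 to 77.1 CPM in knock-out cells with CHIR99021 and 78.9 to 86.8 CPM with DMSO, against 100.9 to 101.0 CPM in parental cells with CHIR99021 and 82.0 to 85.6 CPM with DMSO. Most of the mesoderm and amnion sum was Bmp4, which averaged 68.2, 74.0, 82.6 and 76.5 CPM in the same order of groups. Bmp4 was not called for CHIR99021 in either line. Of 8 tested mesoderm and amnion markers, 1 rose with CHIR99021 in parental cells, T, where 9.1% of all genes rose. In knock-out cells 0 of these 8 were called, where 7.06% of all genes were called. Of 7 surface ectoderm markers only Grhl3 was tested, and Krt5, Krt14, Krt15, Trp63, Tfap2b and Dlx5 had at most 27 counts over 8 libraries. Of the 10 embryonic stem cell markers, 0 rose and 8 fell with CHIR99021 in parental cells, with a median of -0.29, where 10.3% of all genes fell. In knock-out cells 0 rose and 3 fell, with a median of -0.13, where 4.18% of all genes fell. The part of these cell types in the keratin and Tead4 values was not tested.

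The genes whose log2 CPM followed each of 4 members most closely over the 8 libraries are given as a description, out of 11159 genes with at least 5 CPM in their highest group. For Krt8 these included Lgals1 (Pearson r = 0.994), which encodes galectin-1, and Sirt4 (0.99). Lgals1 averaged 53.9 CPM in knock-out cells with CHIR99021 and 43.0 with DMSO, against 82.0 in parental cells with CHIR99021 and 40.1 with DMSO. For Tead4 they were Fn1 (0.993), which encodes fibronectin, Dact2 (0.993) and Hebp1 (0.988), and Fn1 averaged 849.3 CPM in knock-out cells with CHIR99021 and 668.1 with DMSO, against 1188.5 in parental cells with CHIR99021 and 791.1 with DMSO. For Krt18 the closest were Gm13136, an annotated processed pseudogene, at 0.966, Plpp3 at 0.907 and Tex9 at 0.905. For Krt19 they were Elmod3 (0.959), Kif18b (0.958) and Helz (0.954). Among the 10 genes themselves Krt8 and Tead4 went together (0.91) and both ran against Gata2 (-0.97 each), while Krt8 and its partner Krt18 were at 0.51. The 8 points share libraries and groups, so these values describe 4 group means more than 8 separate samples.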

How the data were processed

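The authors deposited 1 table of estimated counts per gene for the 8 libraries (TruSeq Stranded mRNA, total RNA). Per the submitters' processing notes the tools and build were kallisto and GRCm38.p4. The kallisto version, transcript set and strand setting are not given in the sources used here. Of the entries of a library 36.7% to 38.2% were not whole numbers, and all were rounded.

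In edgeR 4.0.16, filterByExpr (minimum count 10, minimum total 15) retained 17739 genes, which held 99.9% of each library's counts. TMM factors were 0.986 to 1.02. The quasi-likelihood fit took all 8 libraries with a mean for each group, which gave 4 residual degrees of freedom, and the common biological coefficient of variation was 0.0532. The 5 comparisons used 2-sided tests with Benjamini-Hochberg adjustment over all genes tested, and adjusted p under 0.05 was called. SEs were derived from each log2 fold change and its F value. CPM are rounded counts over the scaled library size. Replicates correlated at 0.992 to 0.994 across genes on log2 CPM and had a chi-square per degree of freedom of 3.28 to 4.87, where counting noise alone gives values near 1. For ratios of summed counts, exact binomial 95% intervals are given, which cover counting error only. The fit was also run on counts simulated from its own dispersion, with changes placed in well-counted genes for CHIR99021 in parental cells only. That run cannot speak to genes with few counts, to the interaction or to how the replicates were made.

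Coordinates and exon lengths came from GENCODE M21 (GRCm38), where 48058 of 48440 identifiers were found, and promoters from RefSeq (GRCm38.p6), with entries for Krt7, Krt8, Krt18, Gata2, Gata3 and Elf5. Krt7, Krt8, Tead4 and Gata3 overlap other annotated genes, and those with a value in the table had at most 4 counts over all 8 libraries. The pseudogene Krt8-ps, 98.6% identical to Krt8 over 941 aligned bases, had 0 counts. The named genes were the 10 members, Ctnnb1, list genes with the smallest adjusted p or at least 10 CPM, and for 4 members the 3 genes of highest correlation, of which 1 is not reported here. The members and the lists were chosen with earlier results of these data known. Alternatives were DESeq2 1.42.0, relative log expression size factors, no filter, at least 1 CPM in 2 libraries, a fit restricted to the groups compared, a replicate block, and leaving out each library. Levels per kilobase used all annotated exon bases of a gene, with the mean transcript length as the alternative.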

Additional observations from a re-analysis of the deposited data

Results flagged for a closer look

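The CHIR99021 response differed between knock-out and parental cells, by the interaction test of edgeR with Benjamini-Hochberg adjustment over all genes, for 23 genes of the lists used here. Over all genes 6.13% were called, and the lists were chosen with earlier results of these data known. Called were 2 of 8 tested members, 2 of 3 other keratins, 5 of 16 other trophoblast genes and 4 of 20 Hippo pathway genes. So were 3 of 24 junction and regulator genes, 1 of 8 endoderm and 1 of 8 mesoderm and amnion markers. The germ cell markers gave 2 of 8, the stem cell markers 3 of 10 and the haemogenic markers 0 of 7. Values are the log2 response in knock-out cells minus that in parental cells.

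Of the 10 trophoblast and simple epithelium genes, Krt8 differed by -0.53 (0.32 in knock-out cells and 0.85 in parental cells) and Krt19 by -1.50 (-0.53 and 0.97). In the other keratins the difference was 0.90 for Krt17 and 0.41 for Krt42, opposite in sign to that of Krt8 and Krt19.

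Among other trophoblast genes it was -4.73 for Eomes, -4.35 for Cdx2, -2.78 for Msx2, -0.56 for Peg10 and 0.80 for Cdh3. In the Hippo pathway it was -0.45 for Amotl2, -0.37 for Wwtr1, 0.36 for Lats1 and 0.26 for Nf2. Among junction genes it was 0.61 for Cldn4, -0.33 for Jup and -0.25 for Cdh1.

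Among markers of other cell types the difference was -6.60 for T, 1.17 for the endoderm gene Sox7, -0.56 for Kit and 0.42 for Prdm14. Of the embryonic stem cell markers it was 0.84 for Fgf4, 0.32 for Tdgf1 and 0.26 for Sox2.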

How the results depend on the processing

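Each of the 40 log2 fold changes of the 8 tested genes kept its direction and its side of the threshold with relative log expression size factors. So did 39 without the filter on low counts, where Krt19 in knock-out against parental cells with DMSO gained a call, all 35 that remained with 1 CPM in 2 libraries, all 32 in the compared groups alone, and 33 with DESeq2, where the other 7 lost their call. Same-numbered libraries deviated with correlations of -0.0552 to 0.121 over 6 pairs of groups. These correlations include counting noise and cannot settle whether same-numbered libraries were handled together. With a replicate block 5, 4, 1 and 3 of the 8 genes were called in the CHIR99021 comparisons of parental and knock-out cells and in knock-out against parental cells with DMSO and with CHIR99021, and 2 for the interaction, all as without it, and Krt7 in DMSO came to -0.0074.

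Over all genes DESeq2 called 2156 for CHIR99021 in parental cells, 733 in knock-out cells, 727 between the lines with DMSO, 2623 with CHIR99021 and 710 for the interaction, against 3441, 1252, 1198, 4200 and 1087 with edgeR. Of the 8 genes it called 2 for CHIR99021 in knock-out cells (Tead4 and Tfap2c), 0 between the lines with DMSO and 0 for the interaction. Without the filter, 2167 genes were called for CHIR99021 in knock-out cells, 2064 between the lines with DMSO and 1990 for the interaction, and 2 of the 8 between the lines with DMSO. The cause was not tested.

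Leaving out single libraries, the count over all genes ran from 2057 (without parental CHIR99021 replicate 1) to 3507 for CHIR99021 in parental cells, from 307 (without knock-out CHIR99021 replicate 1) to 1237 in knock-out cells, from 357 (without parental DMSO replicate 1) to 1047 between the lines with DMSO, from 2509 (without knock-out CHIR99021 replicate 2) to 4353 with CHIR99021, and from 605 (without knock-out CHIR99021 replicate 2) to 1143 for the interaction. Of the 8 genes, 4 to 5, 1 to 4, 0 to 1, 3 and 1 to 2 were called in these comparisons. The lone library left in a group is assumed to vary like the others. Values that changed sign were not called in either case. In parental cells the CHIR99021 response of Krt7 ran from -0.19 to 0.55 and that of Elf5 from -0.57 to 0.32. In knock-out cells it ran from -0.43 to 0.16 for Krt7, from -0.33 to 0.11 for Krt18 and from -0.26 to 0.47 for Elf5. Between the lines with DMSO, Krt7 ran from -0.23 to 0.28 and Tfap2c from -0.035 to 0.025, and with CHIR99021, Krt7 from -0.64 to 0.12 and Tfap2c from -0.11 to 0.075. The interaction ran from -0.66 to 0.093 for Krt7, from -0.10 to 0.080 for Tfap2c and from -0.26 to 0.63 for Elf5. Depth limits Gata3, Hand1 and Elf5, with 1 to 22 counts in a library, and 2 libraries a group limit all comparisons.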
